A study of Mus with 6 samples.

Results

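The genes described here make the machinery with which a cell folds new secreted proteins in the endoplasmic reticulum (ER) and ships them to the Golgi apparatus. They were chosen by symbol: ER chaperones and protein disulfide isomerases, the sensors and transcription factors of the unfolded protein response, ER-associated degradation, the signal recognition particle with the translocon and signal peptidase, the COPII and COPI vesicle coats, and receptors that sort cargo between ER and Golgi. The symbols of the rule match 102 RefSeq mouse genes, of which 83 have a row in the deposited table of 11659 genes. In 61 of these the row belongs to a stretch of the table where counts correlated best with the exon length of their own row, and these 61 genes are the ones described. The other 22 rows lie in stretches of the table where they correlated best with the exon length of another row (Ddit3, Creld2, Sdf2l1, Dnajc3, Syvn1, Derl1, Sec23a, Kdelr2, Lman2, Tmed9 and Tmed10 among them), and their values are not used here. Manf and Sel1l, which the rule also names, were not analysed here.

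RNA was sequenced from knee cartilage chondrocytes of 12-week-old male C57BL/6J mice, 3 wild-type (WT) samples and 3 samples from conditional Sirt6 knockout (Sirt6 cKO) mice. In the cKO mice both Sirt6 alleles are flanked by loxP sites and are deleted by Col2a1-CreERT2, a Cre recombinase that is driven by the type II collagen promoter and needs tamoxifen, so that Sirt6 is lost only in cells that used this promoter when tamoxifen was given. The sources used here do not state whether the WT mice of this experiment received tamoxifen. The labels describe material frozen on dry ice and the methods describe first-passage cells in culture. The study's data statement speaks of mice of each genotype in the same number as the samples, but the labels tie no sample to an animal, so p-values measure the spread between these samples, which may be technical.

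Chondrocytes are professional secretory cells, because cartilage matrix consists of collagens and proteoglycans that all pass through the ER. When unfolded proteins accumulate there, the membrane sensors Ern1 (IRE1), Atf6 and Eif2ak3 (PERK) start the unfolded protein response, in which Xbp1, cleaved Atf6 and the Atf4 pathway switch on chaperone, degradation and transport genes. Creb3l1 and Creb3l2 (OASIS and BBF2H7) are relatives of Atf6 that are cleaved in the Golgi, and Creb3l2 is known in cartilage for its control of the COPII coat gene Sec23a. Proteins that fold leave in COPII vesicles, escaped ER residents return in COPI vesicles, and proteins that do not fold are taken back to the cytosol and destroyed.

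The counts summed to between 25726958 and 30156935 per sample, and a count of 10 or more was reached by 11016 to 11229 genes per sample. Sirt6 itself had 10273, 9963 and 10943 raw counts in the WT samples and 1056, 862 and 660 in the Sirt6 cKO samples (log2 fold change -3.69, standard error 0.21, adjusted p = 8e-06). Of the markers of other cell types, 10 of 12 fibroblast genes had a usable row, and their summed normalized count was 487263 to 518833 in WT samples and 1090457 to 1259067 in Sirt6 cKO samples, of which 5 genes passed as higher (Col1a1 and Col1a2 among them) and 2 as lower (Vim and Cd34). The 5 usable of 18 chondrocyte markers, 4 of them higher, summed to 5729 to 6246 in WT samples and 11282 to 14135 in Sirt6 cKO samples, and most of the sum was Sox9, with mean normalized counts of 5510.0 in WT and 8471 in Sirt6 cKO samples. Comp, Ucma and Col11a1 were low in WT, with means of 19.4, 4.94 and 201, and stood at 225, 239 and 3227 in Sirt6 cKO samples. Col9a3 went the other way and did not pass, with means of 170 in WT and 118 in Sirt6 cKO samples (log2 fold change -0.53, adjusted p = 0.0756, edgeR). The defining genes Col2a1 and Acan were not analysed here. Only Cd68 of 10 macrophage markers had a usable row, with 43.7 to 48.9 normalized counts in WT samples and 5.9 to 49.7 in Sirt6 cKO samples. Of the hypertrophic markers Spp1 and Runx2, Spp1 was higher, and their sum was 20494 to 25982 in WT samples and 32171 to 33599 in Sirt6 cKO samples. The osteoblast list had only Col1a1, and the lists of endothelial cell, lymphocyte, erythroid and muscle markers had 0 usable rows. Among the usable markers, Lum was at 0 in WT replicate 1. The fibroblast, chondrocyte and hypertrophic sums and Col1a1 were higher in every Sirt6 cKO sample than in any WT sample. Cd68 overlapped between genotypes. The part of these markers in the results was not tested. In bulk RNA, fewer cells of a type and less RNA per cell cannot be told apart.

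Sirt6 cKO chondrocytes had more RNA of 5 of 8 sensors and transcription factors of the unfolded protein response and of 4 of 6 genes of ER-associated degradation, with 0 lower in either role. Among the translocon genes, the COPII coat and the cargo receptors, genes that passed went in both directions. In the COPI coat 1 of 4 genes passed, as lower, and its call was lost in several alternatives. When the quasi-likelihood test of edgeR was run on all 11246 genes that passed the filter, and p was adjusted over them by Benjamini-Hochberg to a threshold of 0.05, 18 of the 61 genes were higher and 7 were lower in Sirt6 cKO chondrocytes. Of all tested genes 22.5% were higher and 24.3% lower by the same test, 46.8% in all. The share of the 61 genes that was higher, 29.5%, was near that background, and the share that was lower, 11.5%, was under it. With upper-quartile scaling, 23 of the 61 were higher and 5 lower, beside 25.7% and 20.7% of all tested genes. Without Sirt6 cKO replicate 2, 14 of the 61 were higher and 4 lower, beside 16.4% and 16.9% of all tested genes. With a fold change over 2 as a further condition, 8 were higher (8.72% of all tested genes) and 1 was lower (7.15% of all tested genes). The normalized counts of all Sirt6 cKO samples lay above all WT samples in 24 of the 61 genes (30.2% of all tested genes) and below in 11 (30.6%). The median log2 fold change of the 61 genes was 0.22, beside 0.002 for all tested genes, and it was 0.14 without Sirt6 cKO replicate 2 and 0.34 without Sirt6 cKO replicate 3. All 61 passed the filter on low counts, and in the lowest of them, Creld1, the smallest normalized count was 58.

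**Figure D1:**
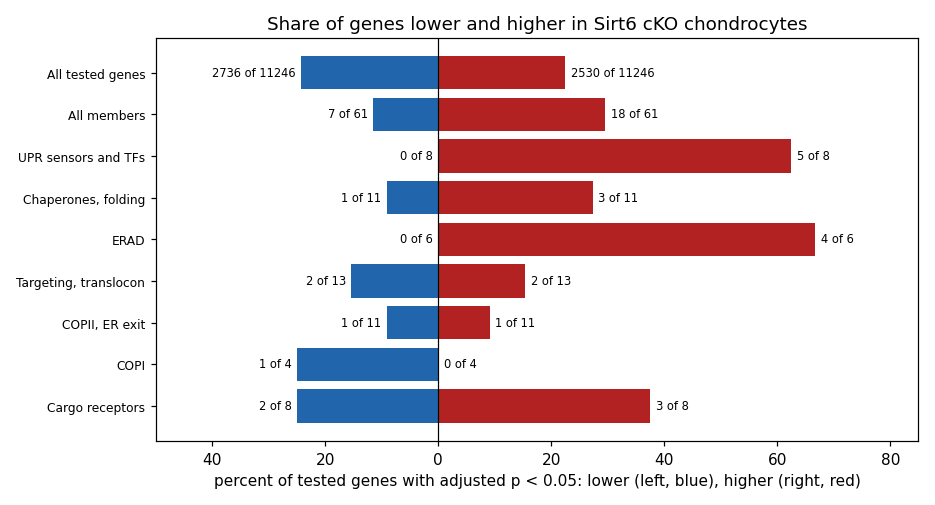
Percent of tested genes with an adjusted p under 0.05, lower (blue, left) or higher (red, right) in Sirt6 cKO than in WT chondrocytes, for all tested genes, all 61 genes and each role, with the numbers of genes beside the bars. The roles with the largest share of higher genes were ER-associated degradation (4 of 6) and the sensors and transcription factors of the unfolded protein response (5 of 8).

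**Figure D2:**
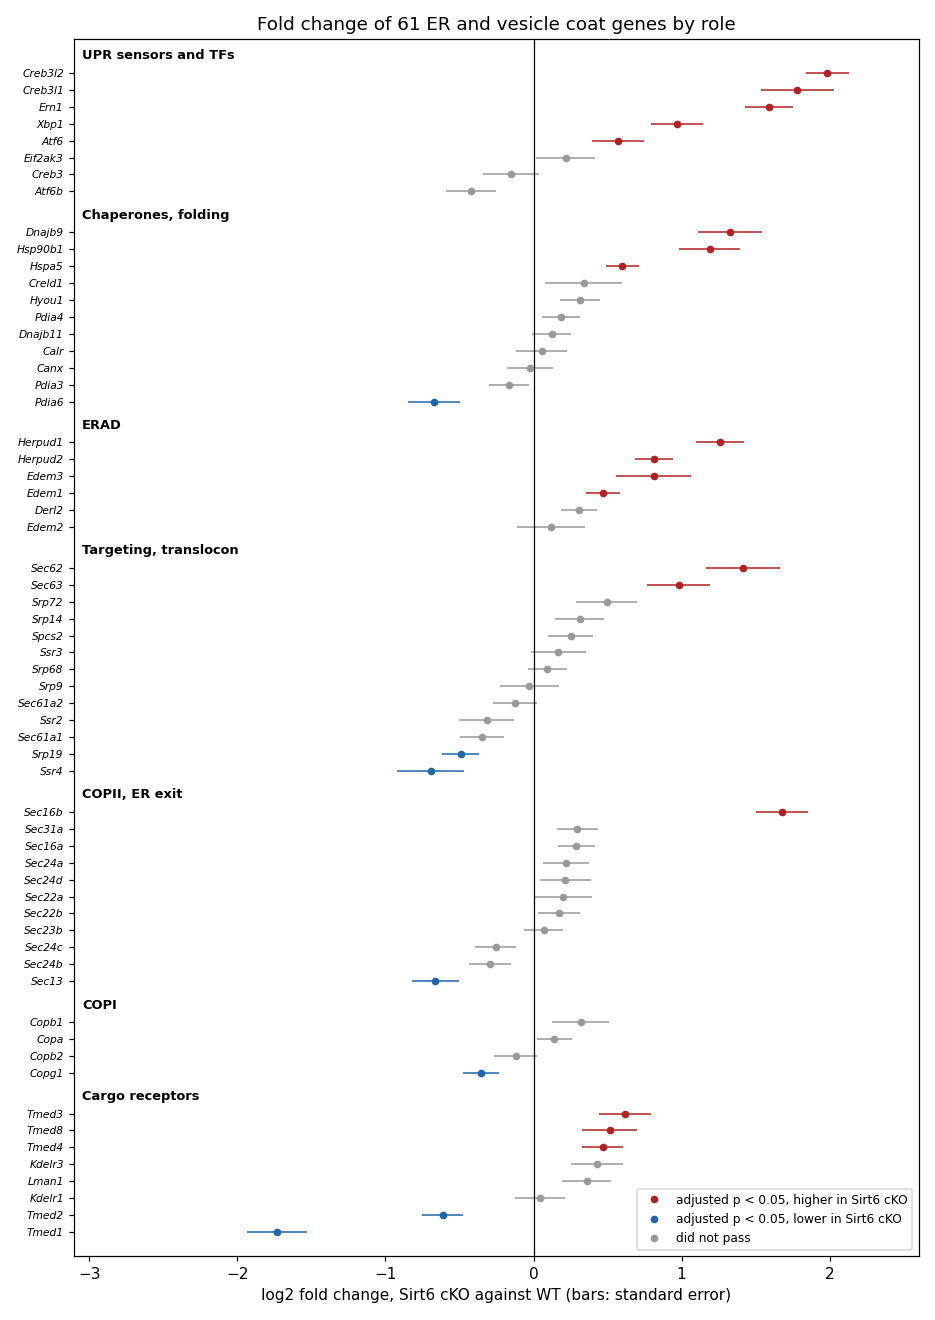
Log2 fold change (points) with its standard error (bars) of each of the 61 genes in Sirt6 cKO against WT chondrocytes, 3 samples each, grouped by role and coloured by the test. Values run from -1.73 for Tmed1 to 1.98 for Creb3l2.

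Among the sensors and transcription factors of the unfolded protein response, 5 of 8 genes were higher, 0 were lower, and the median log2 fold change was 0.77. Creb3l2 (ENSMUSG00000038648, chromosome 6, 37327255 to 37442146 of GRCm38) had 2635, 3368 and 2885 TMM-normalized counts, which are raw counts scaled for library size and composition, in the WT samples and 12102, 12482 and 10582 in the Sirt6 cKO samples. The groups lay far apart, with means of 2962 ± 373 (SD, n = 3) and, after knockout, 11722 ± 1005 (SD, n = 3), and the 3.96-fold difference was the largest among the 61 genes (log2 fold change 1.98, standard error 0.14, adjusted p = 2.25e-05, edgeR). Its relative Creb3l1 (ENSMUSG00000027230, chromosome 2, 91982328 to 92024502), a regulator of collagen secretion in bone, was expressed at a much lower level, with 174, 172 and 105 normalized counts in the WT samples and 444, 466 and 640.4 in the Sirt6 cKO samples. Replicate 3 was the lowest WT sample and also the highest Sirt6 cKO sample for Creb3l1, and the groups did not overlap (log2 fold change 1.78, standard error 0.25, adjusted p = 0.000667, edgeR).

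Ern1 (ENSMUSG00000020715, chromosome 11, 106394650 to 106487852), which encodes IRE1, the kinase and RNase that splices Xbp1 mRNA, had 924, 1094 and 1138 normalized counts in the WT samples and 2880.0, 2866 and 3759.6 in the Sirt6 cKO samples. All 3 Sirt6 cKO samples were above every WT sample, and the mean was 3.01-fold higher (log2 fold change 1.59, standard error 0.16, adjusted p = 0.000129, edgeR). For Xbp1 (ENSMUSG00000020484, chromosome 11, 5520659 to 5525893) the counts were 3168, 2443 and 2066 in WT samples and 5112, 5418 and 4519 in Sirt6 cKO samples. WT replicate 1 was the closest WT sample to the Sirt6 cKO group, and the groups still did not overlap (log2 fold change 0.97, standard error 0.18, adjusted p = 0.00248, edgeR). Counts per gene do not separate spliced from unspliced Xbp1 mRNA. Atf6 (ENSMUSG00000026663, chromosome 1, 170704674 to 170867771), the sensor that becomes a transcription factor when cut in the Golgi, was 1.49-fold higher, with 985, 1310.0 and 1308 in WT samples and 1622, 1605 and 2132 in Sirt6 cKO samples. The lowest Sirt6 cKO value of Atf6 was above the highest WT value (log2 fold change 0.57, standard error 0.17, adjusted p = 0.0253, edgeR), but without Sirt6 cKO replicate 3 the difference no longer passed (adjusted p = 0.0741).

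Eif2ak3, which encodes PERK, had 1243, 1408 and 1429.5 normalized counts in WT samples and 1619.5, 1993 and 1132 in Sirt6 cKO samples. Sirt6 cKO replicate 3 was below all WT samples and the other two were above them, and the test did not pass (log2 fold change 0.22, standard error 0.20, adjusted p = 0.399, edgeR). Atf6b and Creb3, further members of the Atf6 and Creb3 families, had log2 fold changes of -0.42 (adjusted p = 0.0687) and -0.15 (adjusted p = 0.539, both edgeR). Since both are read in the same library, the ratio of Creb3l2 to Atf6b counts per exon length does not depend on the scaling between samples. This ratio was 0.175, 0.325 and 0.282 in the WT and 1.39, 1.41 and 1.17 in the Sirt6 cKO samples. It was above 1 in each Sirt6 cKO sample and below 1 in each WT sample. Neither gene overlapped between genotypes, and they lay in opposite directions, so the ratio had to separate the groups and is given without a test.

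**Figure D3:**
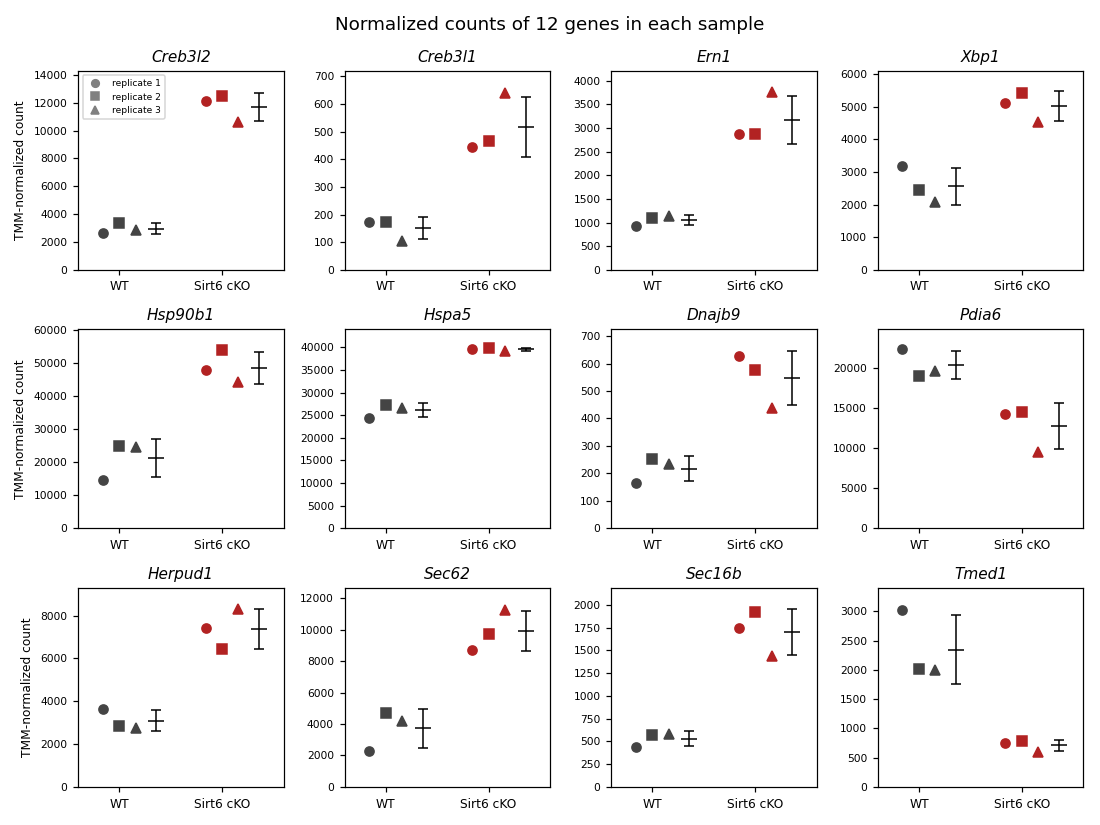
TMM-normalized counts (vertical axes, from 0) of 12 genes in each WT (grey) and Sirt6 cKO (red) sample, with symbols for replicates 1 to 3 and the mean and SD beside each group. In all 12 genes the genotypes do not overlap, 10 are higher in Sirt6 cKO samples, and Pdia6 and Tmed1 are lower.

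Of 11 ER chaperones and folding enzymes, 3 were higher and 1 lower, with a median log2 fold change of 0.19. Hsp90b1 (ENSMUSG00000020048, chromosome 10, 86690209 to 86705509), which encodes GRP94, the ER paralog of cytosolic HSP90, had 14597, 24812 and 24486 normalized counts in the WT samples and 47823, 53758 and 44180.4 in the Sirt6 cKO samples. WT replicate 1 was well under the other two WT samples, and every Sirt6 cKO sample was above all 3 (log2 fold change 1.19, standard error 0.20, adjusted p = 0.002, edgeR). Without WT replicate 1 the log2 fold change of Hsp90b1 was 0.98 (adjusted p = 8.94e-05, edgeR). Hspa5 (ENSMUSG00000026864, chromosome 2, 34771970 to 34776531), which encodes BiP, the Hsp70 chaperone that holds the sensors inactive and is the usual marker of ER stress, had counts of 24428, 27278 and 26701 in WT samples and 39654, 39966 and 39218 in Sirt6 cKO samples. The Sirt6 cKO samples lay within a narrow range, 39613 ± 376 (SD, n = 3) against 26136 ± 1507 (SD, n = 3) in WT, a 1.52-fold difference (log2 fold change 0.60, standard error 0.11, adjusted p = 0.00272, edgeR). Dnajb9 (ENSMUSG00000014905, chromosome 12, 44205897 to 44210068), a J-domain co-chaperone of BiP and a target of Xbp1, rose 2.51-fold from a low level, with 166, 254 and 233 normalized counts in WT samples and 629, 578 and 438 in Sirt6 cKO samples (log2 fold change 1.33, standard error 0.22, adjusted p = 0.00152, edgeR).

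Pdia6 (ENSMUSG00000020571, chromosome 12, 17266545 to 17284770), a protein disulfide isomerase, was the member of this group that was lower, with 22404, 19092 and 19724 normalized counts in WT samples and 14308, 14595 and 9504 in Sirt6 cKO samples. Sirt6 cKO replicate 3 was the lowest, and the groups did not overlap (log2 fold change -0.67, standard error 0.18, adjusted p = 0.0139, edgeR). The ratio of Hsp90b1 to Pdia6 per exon length was 0.605, 1.21 and 1.15 in WT samples and 3.10, 3.42 and 4.32 in Sirt6 cKO samples. The ratio of Hspa5 to Pdia6 went from 1.38 ± 0.19 to 3.42 ± 0.84 (SD, n = 3 each). Both ratios are descriptions, since their genes already lay apart in opposite directions.

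The other 7 chaperones and folding enzymes did not pass the test. Calr and Canx encode calreticulin and calnexin, the lectins that hold glycoproteins during folding. Calr had 41759, 34021 and 34397 normalized counts in WT samples and 41205, 43776 and 29451 in Sirt6 cKO samples, with the lowest value of all in Sirt6 cKO replicate 3 (log2 fold change 0.06, standard error 0.17, adjusted p = 0.812, edgeR). Canx had 18827, 26341 and 27530.0 in WT samples and 23883, 24447 and 23241 in Sirt6 cKO samples, and the WT samples alone spanned the Sirt6 cKO values (log2 fold change -0.02, standard error 0.16, adjusted p = 0.915, edgeR). The sign of these small values depends on which sample or scaling is used. Hyou1, an Hsp70-like exchange factor for BiP, had 5708, 5262 and 5729 normalized counts in WT samples and 7264, 7546 and 5914 in Sirt6 cKO samples. The Sirt6 cKO samples of Hyou1 lay just above the WT samples, and the test did not pass (log2 fold change 0.31, standard error 0.14, adjusted p = 0.0877, edgeR), whereas it did without WT replicate 1 (adjusted p = 0.044), without Sirt6 cKO replicate 3 (adjusted p = 0.0294) and with upper-quartile scaling (adjusted p = 0.0499). The remaining 4, Pdia3, Pdia4, Dnajb11 and Creld1, had log2 fold changes between -0.16 and 0.34.

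ER-associated degradation had 4 of 6 genes higher and 0 lower, with a median log2 fold change of 0.64. Herpud1 (ENSMUSG00000031770, chromosome 8, 94386438 to 94395377), which encodes a stress-induced scaffold of the degradation complex, had 3642, 2864 and 2729 normalized counts in WT samples and 7435, 6419 and 8299 in Sirt6 cKO samples. Each Sirt6 cKO sample was above every WT sample, by 2.40-fold on average (log2 fold change 1.26, standard error 0.16, adjusted p = 0.000456, edgeR). Its paralog Herpud2 had 976, 1123 and 975 in WT samples and 1718, 1831 and 1863 in Sirt6 cKO samples, with little spread in either group (log2 fold change 0.81, standard error 0.13, adjusted p = 0.0013, edgeR). Edem1, an ER protein that recognizes misfolded glycoproteins for degradation, was 1.39-fold higher with 4148, 4439 and 4179 normalized counts in WT samples and 5753, 5705 and 6221 in Sirt6 cKO samples (log2 fold change 0.47, standard error 0.12, adjusted p = 0.0112, edgeR). Edem3, of the same family, had 834, 1745 and 1665 in WT samples and 2584, 2608 and 2268 in Sirt6 cKO samples, and WT replicate 1 was at 0.49 of the level of the other WT samples (log2 fold change 0.81, standard error 0.25, adjusted p = 0.0278, edgeR). The call on Edem3 was lost without Sirt6 cKO replicate 1, 2 or 3 (adjusted p = 0.0741, 0.0808 and 0.0554, edgeR), with log2 fold changes of 0.784, 0.777 and 0.892. Without WT replicate 1 its log2 fold change was 0.54 (adjusted p = 0.00221, edgeR). Edem2 and Derl2, the latter a membrane part of the export channel, had log2 fold changes of 0.12 and 0.31 and did not pass. Derl2 passed without WT replicate 1 (adjusted p = 0.012), as it did with DESeq2, upper-quartile scaling and total counts alone.

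Of 13 genes for targeting to the ER, the translocon and signal peptidase, 2 were higher and 2 lower, and the median log2 fold change was 0.09. The higher genes were Sec62 and Sec63, which encode the membrane proteins that help chains enter the Sec61 channel. Sec62 (ENSMUSG00000027706, chromosome 3, 30792876 to 30821263) had normalized counts of 2298, 4677 and 4174 in WT samples and 8705, 9734 and 11278 in Sirt6 cKO samples. WT replicate 1 was the lowest of all, and the groups did not overlap (log2 fold change 1.41, standard error 0.25, adjusted p = 0.00218, edgeR). For Sec63 (ENSMUSG00000019802, chromosome 10, 42761496 to 42832514) the counts were 2383, 4349 and 3992 in WT samples and 6859.9, 7426 and 6891 in Sirt6 cKO samples, again with WT replicate 1 lowest (log2 fold change 0.98, standard error 0.21, adjusted p = 0.00575, edgeR). Without WT replicate 1 the log2 fold changes were 1.16 and 0.76 (adjusted p = 0.000136 and 0.00023, edgeR). Sec61a1, the main channel-forming subunit, had 12887, 11183 and 11223 normalized counts in WT samples and 9937, 10203 and 7615 in Sirt6 cKO samples. Its Sirt6 cKO samples were all below the WT samples, but the test did not pass (log2 fold change -0.35, standard error 0.15, adjusted p = 0.0823, edgeR). The ratio of Sec62 to Sec61a1 per exon length was 0.288, 0.676 and 0.601 in WT samples and 1.42, 1.54 and 2.39 in Sirt6 cKO samples, given without a test for the same reason.

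The lower genes of this group were Ssr4 and Srp19. Ssr4, a subunit of the translocon-associated protein complex, had 4829, 2944 and 2939.6 normalized counts in WT samples and 2588, 2239.5 and 1795 in Sirt6 cKO samples. WT replicate 1 stood high at 1.64 times the other WT samples, and the lowest WT sample was still above the highest Sirt6 cKO sample (log2 fold change -0.69, standard error 0.23, adjusted p = 0.0326, edgeR). Without WT replicate 1 the log2 fold change of Ssr4 was -0.41 (adjusted p = 0.037, edgeR). Srp19, a protein of the signal recognition particle, had 1549.6, 1357 and 1487 in WT samples and 1089, 988 and 1043 in Sirt6 cKO samples (log2 fold change -0.49, standard error 0.13, adjusted p = 0.0127, edgeR). The call on Ssr4 was lost without Sirt6 cKO replicate 2 or 3 (adjusted p = 0.0862 and 0.126) and with upper-quartile scaling (adjusted p = 0.0547). That on Srp19 was lost without WT replicate 3 or Sirt6 cKO replicate 2 (adjusted p = 0.0531 and 0.0594). In the fits with a sample left out that lost these calls, the log2 fold changes were -0.704 and -0.55 for Ssr4, and -0.472 and -0.458 for Srp19. The other proteins of the signal recognition particle, Srp9, Srp14, Srp68 and Srp72, had log2 fold changes from -0.03 to 0.49, and none passed. Srp72 passed with the replicate number as a block (adjusted p = 0.02), without WT replicate 1 (adjusted p = 0.0247), without WT replicate 2, with DESeq2 and with upper-quartile scaling.

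In the COPII coat, most genes did not pass. Of 11 genes for the coat and ER exit, 1 was higher, 1 was lower, and the median log2 fold change was 0.20. Sec16b (ENSMUSG00000026589, chromosome 1, 157506728 to 157568425), the shorter of the scaffold proteins that mark ER exit sites, had 434, 572 and 584 normalized counts in WT samples and 1746, 1923 and 1432 in Sirt6 cKO samples. It was 3.21-fold higher with no overlap (log2 fold change 1.68, standard error 0.18, adjusted p = 0.000151, edgeR). Its longer paralog Sec16a, with 3888, 4157 and 4131 in WT samples and 4738, 5468 and 4676 in Sirt6 cKO samples, did not pass (log2 fold change 0.29, standard error 0.12, adjusted p = 0.0859, edgeR) except with upper-quartile scaling. Sec13 (ENSMUSG00000030298, chromosome 6, 113728067 to 113740743), an outer-coat protein that also sits in nuclear pores, had 7809, 5569 and 5429 normalized counts in WT samples and 4003, 3912 and 3971 in Sirt6 cKO samples. The Sirt6 cKO samples of Sec13 were almost the same, and all lay below WT (log2 fold change -0.66, standard error 0.16, adjusted p = 0.0102, edgeR), while Sec31a, its partner in the outer coat, did not pass, at 0.30 on the log2 scale (adjusted p = 0.111). The inner-coat genes Sec23b (0.07), Sec24a (0.22), Sec24b (-0.29), Sec24c (-0.26) and Sec24d (0.21) had small log2 fold changes of both signs and did not pass. Sec24d, needed for procollagen export, had 5546, 4602 and 4659.7 normalized counts in WT samples and 6124, 6621 and 4441 in Sirt6 cKO samples, with overlap (log2 fold change 0.21, standard error 0.17, adjusted p = 0.33, edgeR). Sec23b had 2828, 2308 and 2546 in WT samples and 2669, 2836 and 2560.4 in Sirt6 cKO samples, also with overlap (log2 fold change 0.07, standard error 0.13, adjusted p = 0.684, edgeR).

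Of 4 genes of the COPI coat, 0 were higher and 1 was lower, with a median log2 fold change of 0.01. Copa, a coat subunit, had 10236, 9785 and 9838 normalized counts in WT samples and 11422, 11449.7 and 10045 in Sirt6 cKO samples, so that replicate 3 of Sirt6 cKO fell within the WT range. The test did not pass (log2 fold change 0.14, standard error 0.12, adjusted p = 0.347, edgeR). The RefSeq span of Copa overlaps that of Ncstn, on the other strand. Copg1, an adaptor subunit, had 11039, 9742 and 9944 in WT samples and 8314, 8280.2 and 7463 in Sirt6 cKO samples (log2 fold change -0.35, standard error 0.12, adjusted p = 0.0386, edgeR). This call was lost with the replicate number as a block (adjusted p = 0.0543), with upper-quartile scaling (adjusted p = 0.102) and without any 1 of Sirt6 cKO replicates 1, 2 and 3 or WT replicates 2 and 3 (adjusted p = 0.108, 0.0936, 0.103, 0.0824 and 0.101). In these fits with a sample left out, the log2 fold changes of Copg1 were -0.379, -0.376, -0.288, -0.377 and -0.363.

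Among 8 cargo and retrieval receptors, 3 were higher and 2 lower, and the p24 family of Tmed genes, whose proteins cycle between ER and Golgi and select cargo for vesicles, held all 5. Tmed1 (ENSMUSG00000032180, chromosome 9, 21507380 to 21510186) was the only one of the 61 genes to be lower by more than 2-fold. It had 3031, 2021 and 1991 normalized counts in WT samples and 745, 781 and 596 in Sirt6 cKO samples, a 3.32-fold lower level with no overlap (log2 fold change -1.73, standard error 0.20, adjusted p = 0.000282, edgeR). Its span overlaps that of Dnm2 on the other strand. Tmed2 was 1.53-fold lower, with 4450.5, 3796 and 3677 in WT samples and 2715, 2732 and 2341 in Sirt6 cKO samples (log2 fold change -0.61, standard error 0.14, adjusted p = 0.00674, edgeR). Tmed3, Tmed4 and Tmed8 moved in the opposite direction, so the members of the family that passed went both ways.

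Tmed3 had 2558, 1790.1 and 1791 normalized counts in WT samples and 3395, 3315 and 2712 in Sirt6 cKO samples (log2 fold change 0.62, standard error 0.18, adjusted p = 0.0205, edgeR). Tmed4 had 2118, 1750.2 and 1801 in WT samples and 2868, 2540.5 and 2428 in Sirt6 cKO samples (log2 fold change 0.47, standard error 0.14, adjusted p = 0.0225, edgeR). Tmed8 had 718, 1151 and 1072 in WT samples and 1352, 1491 and 1360.3 in Sirt6 cKO samples (log2 fold change 0.51, standard error 0.18, adjusted p = 0.0475, edgeR). In each of the 3 the genotypes did not overlap. Without WT replicate 1, the lowest WT sample, the log2 fold change of Tmed8 was 0.33 (adjusted p = 0.023, edgeR). Tmed3 and Tmed4 did not pass without Sirt6 cKO replicate 1 or 2 or WT replicate 2 or 3 (adjusted p = 0.08, 0.0718, 0.0645 and 0.0718 for Tmed3, and 0.114, 0.0608, 0.0785 and 0.0789 for Tmed4). Tmed8 did not pass without Sirt6 cKO replicate 1, 2 or 3 or WT replicate 3 (adjusted p = 0.0992, 0.138, 0.0841 and 0.063) or with total counts alone (adjusted p = 0.0529). In the fits with a sample left out that lost these calls, the log2 fold changes stayed at 0.541 to 0.578 for Tmed3, 0.395 to 0.487 for Tmed4 and 0.468 to 0.595 for Tmed8.

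The retrieval receptors proper did not pass. Kdelr1 and Kdelr3 encode receptors that return proteins ending in the KDEL signal, such as BiP, to the ER. Kdelr1 had 4655, 3734 and 3434 normalized counts in WT samples and 4582, 4218 and 3397 in Sirt6 cKO samples, with overlapping ranges (log2 fold change 0.04, standard error 0.17, adjusted p = 0.843, edgeR). Kdelr3, whose span overlaps Ddx17 on the other strand, had 2132, 1685 and 1572 in WT samples and 2715, 2566 and 1976 in Sirt6 cKO samples (log2 fold change 0.43, standard error 0.17, adjusted p = 0.0706, edgeR). It passed with the replicate number as a block (adjusted p = 0.0331), without WT replicate 1 (adjusted p = 0.00917) and without Sirt6 cKO replicate 3 (adjusted p = 0.0363), and with upper-quartile scaling and total counts alone. Lman1, the ER-Golgi lectin ERGIC-53, had 3857, 5243 and 4917 in WT samples and 6265, 6649.6 and 5052 in Sirt6 cKO samples and did not pass (log2 fold change 0.36, standard error 0.16, adjusted p = 0.103, edgeR).

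Levels were compared between genes on the RPKM scale, computed here from the counts per kilobase of exon and the TMM-scaled library size, which removes the effect of transcript length. On this scale the median of the 61 genes over all samples was 35.7, beside 11.4 for all tested genes. Calr had the highest mean in both genotypes, at 444 ± 52.7 (SD, n = 3) in WT samples and 461 ± 92.3 (SD, n = 3) in Sirt6 cKO samples. Hsp90b1 was at rank 5 in WT at 184 ± 50.1 (SD, n = 3), close to Pdia6 at 189.6 ± 16.3 (SD, n = 3) and Canx at 179.7 ± 35.0 (SD, n = 3), which did not differ from it beyond their spread. In Sirt6 cKO samples Hsp90b1 was at rank 2, with 419 ± 41.7 (SD, n = 3), and Hspa5 at rank 3, with 392 ± 3.72 (SD, n = 3). These means and that of Calr did not differ beyond their spread, and Pdia6 was at rank 10 with 119 ± 26.6 (SD, n = 3). The transcription factors were expressed at lower levels: Creb3l2 went from 14.2 ± 1.78 (SD, n = 3) to 56.0 ± 4.80 (SD, n = 3), Xbp1 from 27.4 ± 6.00 (SD, n = 3) to 53.7 ± 4.89 (SD, n = 3), and Creb3l1 from 2.01 ± 0.52 (SD, n = 3) to 6.91 ± 1.44 (SD, n = 3). In Sirt6 cKO samples Creb3l2 was therefore at a level like that of Xbp1, whereas in WT samples it was below it.

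**Figure D4:**
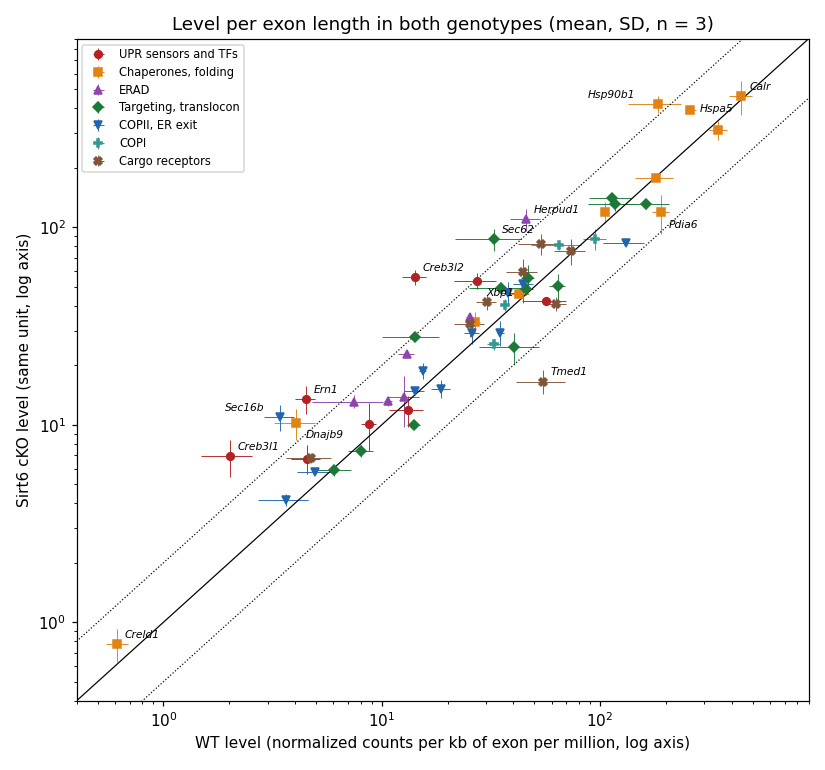
Mean level of each of the 61 genes in WT (horizontal) and Sirt6 cKO (vertical) chondrocytes, on the RPKM scale with log axes, with SD (n = 3), symbols by role, a solid line at equal levels and dotted lines at a 2-fold difference. Creb3l2, Creb3l1, Sec16b and Ern1 lie farthest above the equal line and Tmed1 farthest below.

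The samples of a genotype were not equally close to each other. WT replicate 1 was the lowest or the highest of the WT samples in 58 of the 61 genes (95.1%), beside 90.7% of all tested genes. It tended to be low in genes with a long summed exon length and high in genes with a short one. The log2 ratio of WT replicate 1 to the other WT samples was set against summed exon length. Spearman's rho was -0.612 across the 61 genes and -0.242 across all tested genes. These are correlations across genes, which do not stand for replicates, and are given without a test. At the ends were Edem3 and Sec62, at 0.49 and 0.52 of the other WT samples, and Ssr4 at 1.64 times. Without WT replicate 1, all 25 calls among the 61 genes were kept and 8 more genes passed, while of all tested genes 27.5% were then higher and 27.8% lower, also more than with every sample. These were Sec22a, Sec24b, Sec31a, Hyou1, Derl2, Kdelr3, Srp14 and Srp72, with adjusted p of 0.0244, 0.019, 0.0309, 0.044, 0.012, 0.00917, 0.00191 and 0.0247. Sirt6 cKO replicate 3 was the lowest of its group in 43 of the 61 genes (70.5%), beside 41.4% of all tested genes. Without it, Hyou1, Kdelr3, Sec31a and Spcs2 passed and Atf6, Copg1, Edem3, Ssr4 and Tmed8 no longer did, and 19.4% of all tested genes were higher and 19.9% lower. The part of these samples' differences in the results was not tested further.

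**Figure D5:**
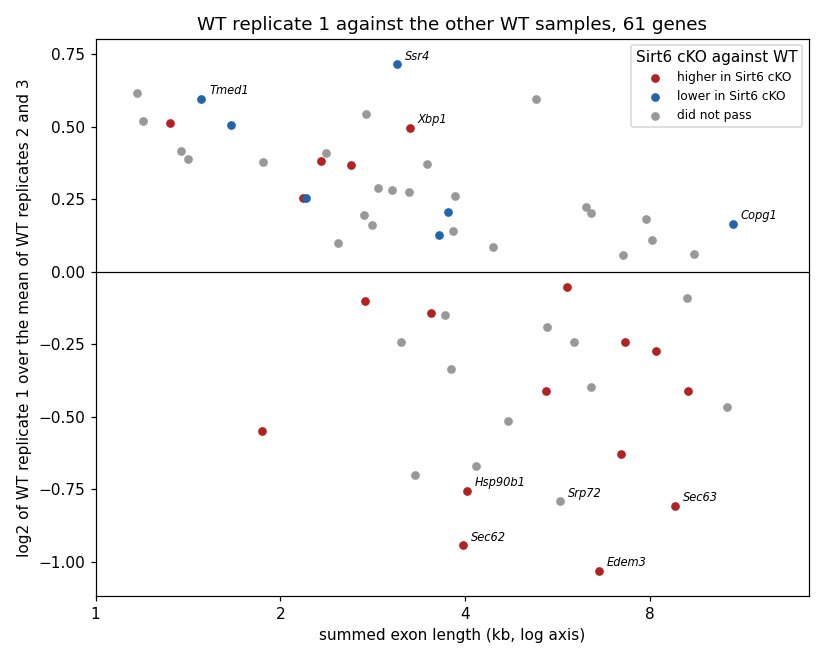
Log2 ratio of the normalized count in WT replicate 1 to the mean of WT replicates 2 and 3 (vertical), against summed exon length in kilobases (log axis), for the 61 genes, coloured by their test in Sirt6 cKO against WT. Genes with a longer summed exon length lie lower (Spearman's rho -0.612), and Edem3 and Sec62 lie lowest.

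A further 122 genes of the same pathways that are not in the rule were listed by hand, and 70 of them had a usable row. Of these 13 were higher and 12 lower, and the median log2 fold change was 0.02. By list, 2 of 7 genes of the ER stress response were higher and 1 lower, 5 and 6 of 26 folding and modification genes, 3 and 1 of 10 degradation genes, and 3 and 4 of 27 genes of coats and tethers. Over all 70 genes, 18.6% were higher and 17.1% lower, beside 22.5% and 24.3% of all tested genes. The higher count changed with the samples used, to 7 without Sirt6 cKO replicate 1 (15.8% of all tested genes higher), 8 without WT replicate 3 (18.3%) and 21 without WT replicate 1 (27.5%). With upper-quartile scaling 15 were higher and 8 lower, beside 25.7% and 20.7% of all tested genes. With the replicate number as a block, 15 were higher and 14 lower, beside 25.6% and 25.5% of all tested genes. In that fit Mbtps2, Magt1, Use1, Rpn1 and Ube2g2 passed (adjusted p = 0.00713, 0.0471, 0.0436, 0.0453 and 0.0393) and Faf2 did not (adjusted p = 0.0536, edgeR).

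Atf3, a stress-induced transcription factor downstream of Atf4, had raw counts of 93, 103 and 145 in WT samples and 625, 403 and 1915 in Sirt6 cKO samples (log2 fold change 3.03, standard error 0.54, adjusted p = 0.00231, edgeR). Sirt6 cKO replicate 3 was far above the other two, and without it the log2 fold change of Atf3 was 2.115 (adjusted p = 0.00187, edgeR). Ppp1r15a, which encodes GADD34, the phosphatase subunit that restarts translation after stress, had 1044, 805 and 967 and 2850, 1742 and 5636 raw counts, with the same sample highest (log2 fold change 1.75, standard error 0.39, adjusted p = 0.00648, edgeR). With 1 sample left out at a time, the log2 fold change of Ppp1r15a was 1.199 to 2.074. Bok, a Bcl-2 family protein linked to the ER, was 7.23-fold lower, with raw counts of 2679, 1865 and 2049 in WT samples and 284, 339 and 370 in Sirt6 cKO samples (log2 fold change -2.85, standard error 0.24, adjusted p = 4.95e-05, edgeR). Atf4, the factor that PERK signaling raises by translation, is named although it falls outside the rule for named genes, after its values were seen. It had 22661, 20380 and 22738 raw counts in WT samples and 21259, 18418 and 22498 in Sirt6 cKO samples and did not pass (log2 fold change -0.18, standard error 0.15, adjusted p = 0.352, edgeR).

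In the other lists, Sar1b, the GTPase that starts COPII assembly, was 1.82-fold lower (log2 fold change -0.87, standard error 0.15, adjusted p = 0.00181, edgeR). Arf1, the GTPase that starts COPI assembly, was 1.91-fold lower, with raw counts of 16491, 14134 and 15126 in WT samples and 8990, 9474 and 7389 in Sirt6 cKO samples (log2 fold change -0.93, standard error 0.17, adjusted p = 0.0027, edgeR). Uso1, a tether of ER-to-Golgi vesicles, was 1.78-fold higher (log2 fold change 0.83, standard error 0.19, adjusted p = 0.00707, edgeR). Of the folding and modification genes, Mogs and Ddost, which trim and attach N-glycans, had log2 fold changes of -0.91 and -0.72 (adjusted p = 0.00125 and 0.00438, edgeR), and the ER calcium-binding protein gene Rcn3 one of 0.89 (adjusted p = 0.00128). Vcp, the ATPase that pulls proteins out of the ER, was 1.57-fold lower (log2 fold change -0.65, standard error 0.14, adjusted p = 0.00476, edgeR), while its adaptor gene Ubxn4 and the ER ubiquitin ligase gene Rnf139 were higher, with log2 fold changes of 0.52 and 0.47 (adjusted p = 0.0122 and 0.0361). The call on Rnf139 was lost without Sirt6 cKO replicate 1, 2 or 3 or WT replicate 3 (adjusted p = 0.103, 0.052, 0.0944 and 0.0658).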

How the data were processed

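RNA-seq of 3 WT and 3 Sirt6 cKO chondrocyte samples was read from a table of raw read counts per mouse Ensembl gene that the authors deposited, with gene positions and summed exon lengths. The submitters' processing notes name cutadapt, HISAT2 2.0.5, StringTie and the human build hg19, although the table holds mouse genes whose positions matched GRCm38.p6. The counting tool and whether it used strand are not given in the sources used here, so overlapping genes may share reads. Besides Copa, Tmed1 and Kdelr3, spans of other protein-coding genes overlap Hspa5 (Rabepk), Pdia6 (Atp6v1c2), Pdia3 (Catsper2) and Derl2 (Mis12). The same holds for Creb3 (Tln1 and Gba2), Atf6 (Gm29733) and Tmed8 (Samd15). Hsp90b1, Sec24c, Sec24d and Tmed4 overlap a row of the deposited table on the other strand. RNA genes of other kinds overlap further members, Creb3l2 and Sec16b among them. Library kit and sequencer differ between the labels and the methods.

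Symbols were assigned from RefSeq by chromosome and a joint span of at least 0.5, without use of strand. This named 10609 of 11659 rows (91.0%, and 8.9% after a shift of 1 Mb). Labels and counts were checked by the Spearman correlation of exon length with count. It was 0.25 (1768 rows) and 0.295 (4853 rows) in the Ensembl number ranges 1 to 20900 and 25770 to 48200, against -0.028 to 0.041 for rows up to 6 above or below. Between the ranges it was -0.002, and 0.266 with the count 1 row lower. Over number 48200 (3594 rows) it was 0.372 in the same row, 0.36 to 0.503 in the other rows and highest 3 rows away, so no peak at the same row marked those counts as matching their labels. Only the 6621 rows in both ranges were used for named genes. The members and gene lists were chosen with earlier results of these data known.

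All genes were fitted together with edgeR 4.0.16 (R 4.3.3; TMM factors, filterByExpr, quasi-likelihood test on genotype, Benjamini-Hochberg over 11246 tested genes, adjusted p under 0.05), which left out 413 genes of low count. The code was tested on simulated counts. Named were up to 5 passing genes per role with the largest change (normalized mean of 100 or more, no sample under 10 raw counts), a set list of well-known members, up to 3 passing genes per further list, and Sirt6. Members named beside these were chosen after their values were seen. The main fit did not treat sample numbers in the labels as pairs. The deviations of same-numbered samples from their group means correlated at 0.243, 0.100 and 0.127, so the replicate number was used in an alternative fit. Alternatives used other scaling, filters and tests (DESeq2 1.42.0, limma 3.58.1), the replicate number as a block, and each sample left out. Sequences of promoters and proteins were not analysed here.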

Additional observations from a re-analysis of the deposited data

How the results depend on the processing

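Across 17 alternatives, the 49 named genes gave 833 values, of which 770 kept their direction and their side of the threshold. Of the 61 genes, 12 were higher in every alternative (Creb3l1, Creb3l2, Dnajb9, Ern1, Herpud1, Herpud2, Hsp90b1, Hspa5, Sec16b, Sec62, Sec63 and Xbp1) and 2 were lower (Tmed1 and Tmed2). The share of all tested genes with the same call in every alternative was not computed, so these counts have no background beside them. At an adjusted p under 0.01, 12 of the 61 genes were higher and 2 lower, and of all genes 1478 were higher and 1628 lower. With only the rows whose labels fitted, 1623 of all genes were higher and 1736 lower, since fewer genes were tested. Leaving out 1 sample at a time, 14 to 25 of the 61 genes were higher and 4 to 8 lower, beside 1788 to 3105 and 1903 to 3139 of all genes. The median log2 fold change of the 61 genes was then 0.14 to 0.34, the lowest value without Sirt6 cKO replicate 2 and the highest without Sirt6 cKO replicate 3. Small changes turned sign. With 1 sample left out, the log2 fold change was -0.056 to 0.226 for Calr, -0.175 to 0.091 for Canx and -0.049 to 0.182 for Kdelr1, and that of Canx was 0.022 with total counts alone and 0.056 with upper-quartile scaling. The cause was not tested. Upper-quartile scaling and total counts alone moved the median of all genes to 0.08 and 0.05.

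With the replicate number as a block, Kdelr3 and Srp72 passed and Copg1 did not, and no other call among the 61 genes changed. In that fit 20 of the 61 genes were higher and 6 were lower, beside 25.6% and 25.5% of all tested genes.

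With 3 samples per genotype, small differences cannot be told from the spread, and 41 of the 102 genes of the rule could not be described. Each of the 61 genes had at least 60 raw counts in every sample.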
